A study of Homo sapiens with 6 samples.

Results

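Mitosis and the G2 phase before it are served by a set of genes that is expressed in dividing cells and peaks late in the cell cycle. The 53 genes described here encode mitotic kinases, cyclins, checkpoint, kinetochore, spindle, cytokinesis and condensin proteins. They were listed by gene symbol. Each symbol matched 1 Ensembl gene, so they make up 53 of the 60564 gene rows of the count table, and all 53 passed the filter on low counts, which kept 17006 genes for testing. The RNA came from A2780, an established line of human ovarian cancer cells, and was sequenced as 3 GPT2si and 3 GPT2sinc libraries. The series title names a deficiency of GPT2, the mitochondrial alanine aminotransferase that interconverts pyruvate and glutamate with alanine and alpha-ketoglutarate. The labels give line and genotype alone. They do not spell out si and sinc, and they name no dose, time or clone; GPT2sinc is taken here as the control of each comparison. Nothing says that libraries of 1 group are separate cultures, so the p-values reflect variation among libraries that may be only technical.

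Cells enter mitosis when CDK1 bound to cyclin B becomes active. Kinetochores then attach chromosomes to the spindle, the checkpoint holds anaphase back until all are attached, and the anaphase-promoting complex with CDC20 releases separase. The genes are silenced in resting and early-cycle cells by the DREAM complex and switched on by B-MYB, the MuvB core and FOXM1. Many of their promoters carry a cell cycle genes homology region (CHR), to which MuvB binds, next to CCAAT boxes, to which NF-Y binds.

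The promoter letters of these genes are shown because the list of symbols did not use them. RefSeq windows from 250 bases before to 50 bases after the gene start (GRCh38.p14) were found for 45 of the 53 genes. The CHR letters TTTGAA or TTCGAA, on either strand, occurred in a window of 36 of them, or 80.0%, against 15.3% of 10818 tested protein-coding genes with windows of the same length. CCAAT on either strand occurred in 34, or 75.6%, against 43.0%, and both motifs occurred in 29, or 64.4%, against 6.40%. Of 51 DNA replication genes with windows, 5.88% held CHR letters and 64.7% CCAAT. The CHR letters can overlap CCAAT read on the other strand, as in MKI67. In CCNB2, CCAAT letters on either strand began 244, 120, 87 and 54 bases before the start, the last 3 at steps of 33 bases, and TTTGAA began 29 bases before it. In the sequences below, written 5′ to 3′ on the strand of the gene, capitals mark CHR letters (TTCAAA in KIF14 is TTTGAA on the other strand), shown for 6 genes whose values are described later.
BUB1, chr2:110678047-110678072, minus strand: gcgcggggtaTTCGAAtcggcggcgg
NUSAP1, chr15:41332884-41332909, plus strand: gcgccagggaTTTGAAccgcgctgac
KIF14, chr1:200620735-200620760, minus strand: ggggcgcccaTTCAAAttgcggcctt
BUB1B, chr15:40161036-40161061, plus strand: gaccgttaaaTTTGAAacttggcggc
CCNB2, chr15:59105107-59105132, plus strand: cgacgcggtaTTTGAAtcctggaaca
CDC25C, chr5:138331819-138331844, minus strand: tggcggaaggTTTGAAtggtcaacgc
Longer stretches follow for genes with different fold changes, limited to bases outside annotated exons, with CCAAT on either strand also in capitals. MKI67 and ESPL1 hold both motifs, CCNB2 shows the repeated CCAAT boxes, ASPM has TTTGAA on the other strand (TTCAAA), and the stretches of KIF2C and CENPE hold neither.
MKI67, chr10:128126424-128126543, minus strand: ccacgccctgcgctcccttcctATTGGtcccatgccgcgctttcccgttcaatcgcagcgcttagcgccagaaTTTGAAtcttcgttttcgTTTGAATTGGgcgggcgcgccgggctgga
ESPL1, chr12:53268179-53268298, plus strand: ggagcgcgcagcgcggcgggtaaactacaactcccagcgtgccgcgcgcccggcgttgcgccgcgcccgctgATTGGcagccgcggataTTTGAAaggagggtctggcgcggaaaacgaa
CCNB2, chr15:59105026-59105077, plus strand: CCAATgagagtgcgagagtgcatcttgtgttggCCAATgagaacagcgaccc
ASPM, chr1:197146695-197146789, minus strand: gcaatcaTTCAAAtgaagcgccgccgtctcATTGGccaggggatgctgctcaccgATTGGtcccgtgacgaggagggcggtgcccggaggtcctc
KIF2C, chr1:44739717-44739817, plus strand: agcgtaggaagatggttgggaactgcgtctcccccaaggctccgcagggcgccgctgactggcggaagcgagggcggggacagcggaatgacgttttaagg
CENPE, chr4:103198410-103198463, minus strand: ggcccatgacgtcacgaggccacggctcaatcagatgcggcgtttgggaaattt

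Total counts per library ran from 41931162 to 50882329. GPT2, the gene named in the labels, had 4714, 3677 and 4416 counts in GPT2si 1 to 3 and 10807, 10683 and 9516 in GPT2sinc 1 to 3. Its mean level was 41.7% of that in GPT2sinc (log2 fold change −1.26, SE 0.08, adjusted p = 0.000393, edgeR quasi-likelihood test). Every adjusted p here comes from that test with Benjamini-Hochberg adjustment over all 17006 genes, unless another tool, filter or set of libraries is named. Of 6 markers of the labelled tissue, FOLR1 had 13.9 to 19.3 CPM (counts scaled to the library total with TMM factors) and MSLN 0.285 to 0.828, PAX8, MUC16 and SOX17 reached at most 0.351, and WT1 was at 0 in all libraries. The epithelial keratins KRT8 and KRT18 had 31.0 to 42.9 and 24.1 to 35.4 CPM. Of the mesenchymal markers VIM had 11890 to 13278 CPM, CDH2 26.1 to 37.6 and FN1 1.40 to 1.92. Leukocyte genes CD3E and NKG7 were at 0 in all libraries and PTPRC reached at most 0.119 CPM.

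As a group the mitosis genes lay lower in GPT2si, yet no single one passed the test. These genes and the lists set beside them were chosen with earlier results of these data known. The shares given here are therefore a description and not an independent test. Of the 53 genes, 45 had a negative log2 fold change (84.9%, against 52.0% of all genes tested), and the median was −0.27 against −0.01 over all genes tested. With edgeR 0 of 53 were lower and 0 higher at an adjusted p under 0.05, where 1.42% of all genes tested were called, 0.841% lower and 0.576% higher. At an unadjusted p under 0.05, 22 were lower (41.5%, against 9.27% of all genes tested) and 0 higher (10.3% of all genes). In 23 genes all GPT2si libraries lay below all GPT2sinc libraries (43.4%, against 13.2%), and in 0 they all lay above (14.9%). Both held, an unadjusted p under 0.05 and no overlap, for 20 lower genes of the 53, against 8.40% of all genes tested. DESeq2 called 8 lower and 0 higher, at a background of 3.58% lower, and limma-voom called 0. Together the 53 genes held 0.436%, 0.428% and 0.446% of all counts in GPT2si 1 to 3 and 0.497%, 0.502% and 0.509% in GPT2sinc 1 to 3, so that the groups did not overlap. In RNA from whole cultures, fewer cells in G2 or mitosis and less of these RNAs per such cell cannot be told apart.

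**Figure D1:**
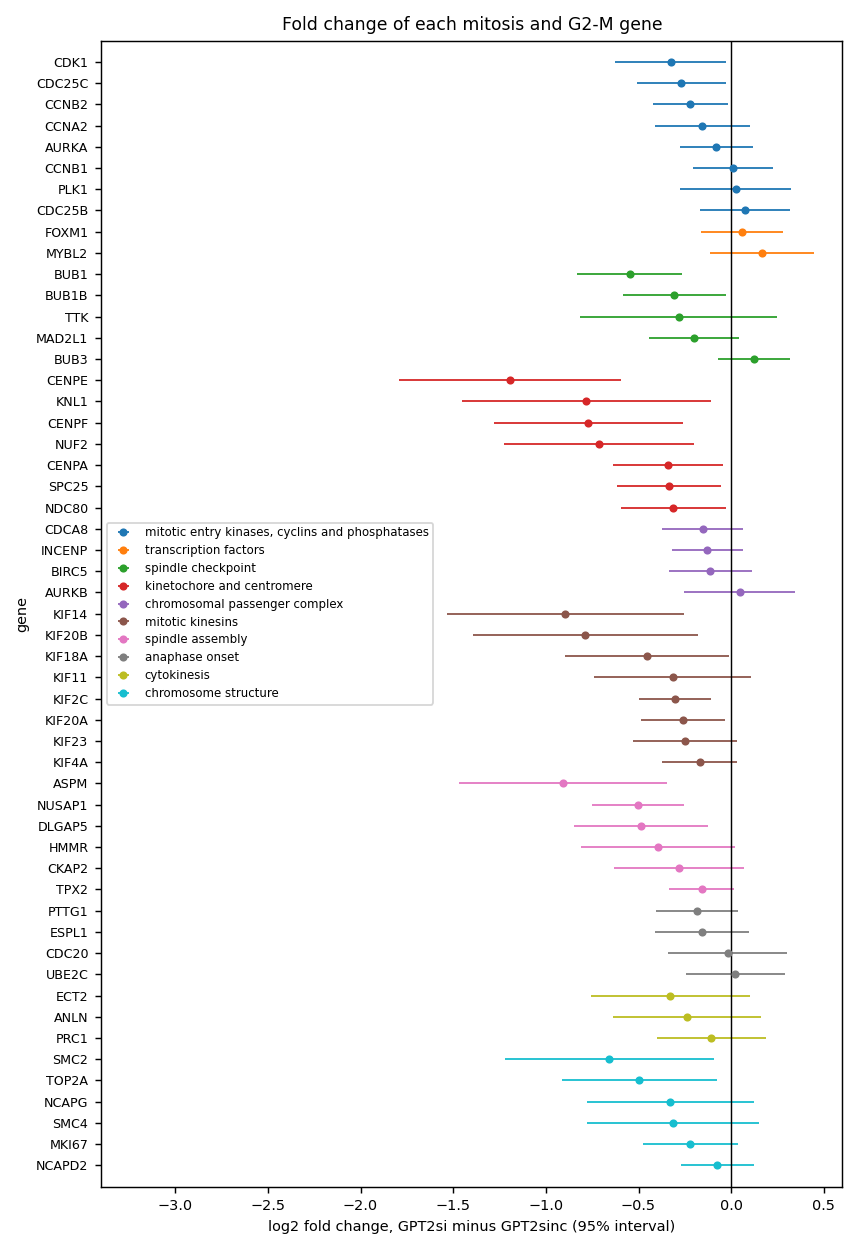
Log2 fold change (x axis, GPT2si minus GPT2sinc) of the 53 mitosis and G2-M genes (y axis, grouped and coloured by role), with the 95% interval of the edgeR fit on 3 libraries a group. Points lie left of 0 for 45 genes, farthest for CENPE at −1.19, and intervals of the 2 transcription factor genes span 0.

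The kinetochore and centromere genes had the most negative median of the 10 roles, −0.71. All 7 were negative, against 52.0% of all genes tested. All 7 also had an unadjusted p under 0.05, against 9.27% lower over all genes tested, while 0 passed with adjustment. CENPE is the kinesin motor that carries chromosomes along microtubules to the spindle equator (ENSG00000138778; chromosome 4, 103105806 to 103198409, minus strand of GRCh38 in GENCODE 29). It had 2.57, 1.77 and 2.28 CPM in GPT2si 1 to 3 and 6.89, 3.36 and 4.96 CPM in GPT2sinc 1 to 3. Every GPT2si library lay below every GPT2sinc library, but the controls themselves were spread widely, with GPT2sinc 1 highest. The level was 2.21 ± 0.403 against 5.07 ± 1.77 CPM (SD, n = 3; log2 fold change −1.19, SE 0.27, adjusted p = 0.0624). CENPF, a large protein of the outer kinetochore and nuclear matrix, had 33.6, 24.3 and 45.5 CPM in GPT2si 1 to 3 and 75.1, 53.5 and 48.0 CPM in GPT2sinc 1 to 3. GPT2sinc 1 stood above the other controls, and GPT2si 3 came close to GPT2sinc 3 without reaching it (log2 fold change −0.77, SE 0.23, adjusted p = 0.118). NUF2 and NDC80 are partners in the NDC80 complex that grips microtubules, and SPC25 joins that complex to the chromosome. Their log2 fold changes were −0.71, −0.31 and −0.33 (SE 0.23, 0.13 and 0.12), with no overlap between the groups in any of them. The NUF2 gene overlaps RGS5 on the opposite strand, so its counts are uncertain. CENPA, the histone variant that marks centromeres, was at −0.34 (SE 0.13); its gene overlaps SLC35F6 on the same strand, so its counts are uncertain. KNL1, the scaffold that recruits checkpoint proteins, was at −0.78 (SE 0.30) with overlapping groups.

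The spindle checkpoint genes split by member. BUB1, a kinase that marks centromeric histone H2A and starts checkpoint assembly (ENSG00000169679; chromosome 2, 110637698 to 110678114, minus strand), had 62.5, 44.7 and 60.5 CPM in GPT2si 1 to 3 and 81.8, 82.0 and 81.4 CPM in GPT2sinc 1 to 3. The 3 controls were nearly equal, and all GPT2si libraries lay below them, with GPT2si 2 lowest. The level was 55.9 ± 9.75 against 81.8 ± 0.273 CPM (log2 fold change −0.55, SE 0.13, adjusted p = 0.0684), which was 68.3% of the control level. BUB1B, which encodes BUBR1, the subunit of the checkpoint complex that blocks CDC20, had 53.9, 39.6 and 53.6 CPM in GPT2si 1 to 3 and 61.1, 60.8 and 60.1 CPM in GPT2sinc 1 to 3. Here too the groups did not overlap (log2 fold change −0.31, SE 0.12, adjusted p = 0.220). MAD2L1, which binds CDC20, was at −0.20 (SE 0.11), also without overlap, and TTK, the kinase that triggers the checkpoint, at −0.28 (SE 0.24) with overlap. BUB3, the shared partner of BUB1 and BUBR1, was the only checkpoint gene with a positive value (0.12, 95% interval −0.07 to 0.32). It was also the only one of the 53 genes that was positive in all 16 fits tried, and passed in 0 of them.

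**Figure D2:**
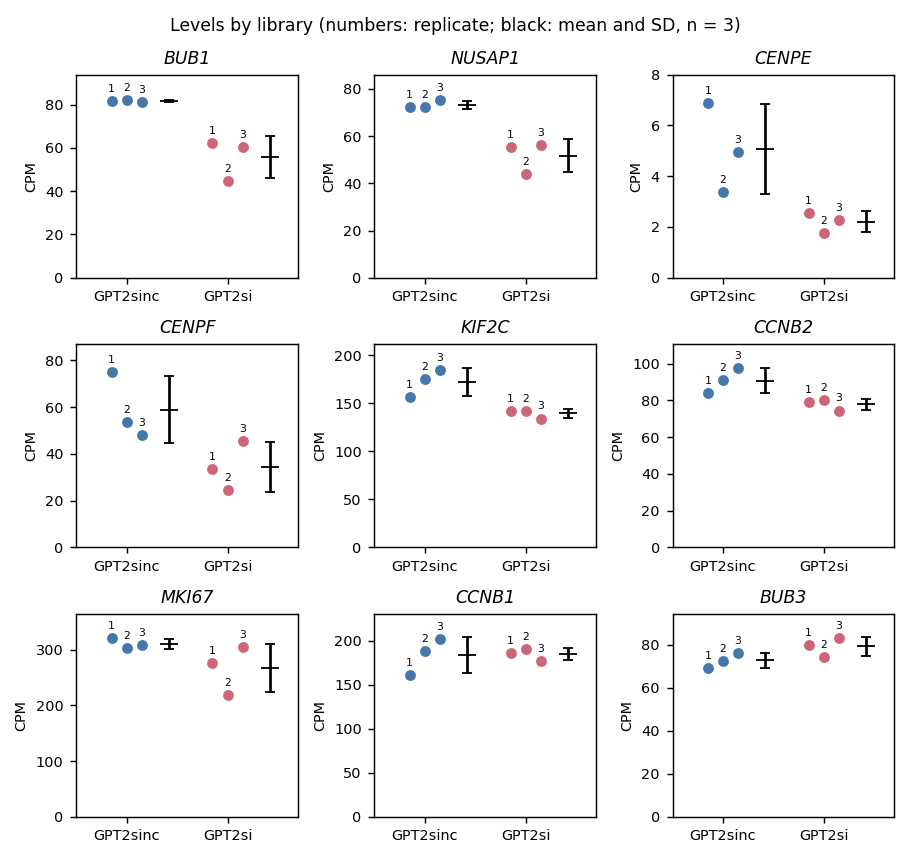
TMM-scaled CPM (y axis, from 0) of 9 genes in the 3 GPT2sinc and 3 GPT2si libraries, with replicate numbers beside the points and mean ± SD (n = 3) in black. BUB1, NUSAP1, CENPE, CENPF, KIF2C and CCNB2 show no overlap between the groups, whereas MKI67, CCNB1 and BUB3 do, and GPT2si 2 is lowest for BUB1 at 44.7 CPM and for MKI67 at 219 CPM.

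Spindle assembly genes were all negative (6 of 6, against 52.0% of all genes tested), with a median of −0.44. Of these, 3 had an unadjusted p under 0.05, against 9.27% lower over all genes tested. NUSAP1, which bundles spindle microtubules near chromatin (ENSG00000137804; chromosome 15, 41332694 to 41381050, plus strand), had 55.4, 43.7 and 56.2 CPM in GPT2si 1 to 3 and 72.2, 72.4 and 75.3 CPM in GPT2sinc 1 to 3. The controls were close to each other and above every GPT2si library. At 51.8 ± 6.98 against 73.3 ± 1.73 CPM (log2 fold change −0.50, SE 0.11, adjusted p = 0.0620) it had the smallest p of the 53 genes. ASPM, which holds spindle poles together, had 7.16, 5.44 and 9.90 CPM in GPT2si 1 to 3 and 18.9, 11.8 and 11.6 CPM in GPT2sinc 1 to 3. GPT2sinc 1 stood well above the other controls, and the groups did not overlap (log2 fold change −0.91, SE 0.25, adjusted p = 0.105). DLGAP5, also called HURP and a stabiliser of kinetochore fibres, was at −0.49 (SE 0.16) without overlap. HMMR and CKAP2, microtubule-associated proteins, were at −0.39 and −0.28 with overlap. TPX2, the activator of Aurora A on the spindle, was at −0.16 (SE 0.08), a small difference but one without overlap. The level of TPX2, 82.9 CPM per kb of exon in GPT2sinc, was the second highest of the 53 per length.

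All 8 mitotic kinesins were negative as well (52.0% of all genes tested), with a median of −0.31. At an unadjusted p under 0.05, 5 were lower (9.27% of all genes tested), and 6 were lower without overlap (13.2%). KIF2C, or MCAK, which removes faulty attachments by depolymerising microtubules, had 142, 142 and 134 CPM in GPT2si 1 to 3 and 157, 175 and 185 CPM in GPT2sinc 1 to 3. The GPT2si libraries lay close together and below all controls (139 ± 4.65 against 172 ± 14.2 CPM; log2 fold change −0.30, SE 0.09, adjusted p = 0.113). KIF14, which works in cytokinesis, had 4.71, 4.05 and 8.23 CPM in GPT2si 1 to 3 and 14.1, 9.23 and 8.30 CPM in GPT2sinc 1 to 3. GPT2si 3 and GPT2sinc 3 differed little, and GPT2sinc 1 stood apart as for ASPM (log2 fold change −0.89, SE 0.29, adjusted p = 0.137). KIF20B, a motor of late cytokinesis, was at −0.79 (SE 0.27), and KIF18A, which damps chromosome movement, at −0.46 (SE 0.20). KIF20A, which carries the passenger complex to the midzone, was at −0.26 (SE 0.10). KIF18A overlaps METTL15, and KIF20A overlaps BRD8 and CDC23, each on the opposite strand. No source used here gives the strand setting of the counting, so these values are uncertain. KIF11, the motor that separates the poles, KIF23, a centralspindlin subunit, and KIF4A, a midzone motor with the near-identical copy KIF4B and an overlap with PDZD11 that makes its counts uncertain, lay between −0.32 and −0.17.

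Genes of chromosome structure were all negative (6 of 6, against 52.0% of all genes tested), with a median of −0.32. Of these, 2 had an unadjusted p under 0.05, against 9.27% lower over all genes tested. TOP2A, the topoisomerase that untangles sister chromatids, had 109, 66.9 and 122 CPM in GPT2si 1 to 3 and 153, 136 and 129.7 CPM in GPT2sinc 1 to 3. GPT2si 2 was far below the rest, and GPT2si 3 came nearest to the controls (log2 fold change −0.50, SE 0.19, adjusted p = 0.191). SMC2, the condensin core ATPase subunit, had 11.1, 6.21 and 13.6 CPM in GPT2si 1 to 3 and 19.4, 15.1 and 14.4 CPM in GPT2sinc 1 to 3. The pattern by library was that of TOP2A (log2 fold change −0.66, SE 0.25, adjusted p = 0.199). SMC4 and NCAPG, also condensin subunits, were at −0.32 and −0.33 with overlap between the groups. The NCAPG gene overlaps LCORL on the opposite strand, so its counts are uncertain. NCAPD2, another condensin subunit and the most abundant of the 53 genes in CPM, had 369.6, 401 and 349 CPM in GPT2si 1 to 3 and 365, 413 and 401 CPM in GPT2sinc 1 to 3. It differed by less than its spread (−0.07, 95% interval −0.27 to 0.12). The NCAPD2 gene overlaps MRPL51 on the opposite strand, so its counts are uncertain. MKI67, which encodes the proliferation antigen Ki-67 that coats mitotic chromosomes, had 276, 219 and 304 CPM in GPT2si 1 to 3 and 321, 303 and 308 CPM in GPT2sinc 1 to 3. GPT2si 3 lay within the control range (log2 fold change −0.22, SE 0.12, adjusted p = 0.322).

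The genes that start mitosis differed less. Their transcripts ran from 37.0% GC (CDK1) to 59.3% (CDC25B). Those of the kinetochore and centromere genes ran from 35.3% (CENPE) to 47.8% (CENPA). What part GC content has in the differences between roles was not tested. Of 8 entry kinases, cyclins and phosphatases 5 were negative, against 52.0% of all genes tested, with a median of −0.12. At an unadjusted p under 0.05, 3 were lower, against 9.27% of all genes tested. CCNB2, cyclin B2, had 79.2, 80.2 and 74.5 CPM in GPT2si 1 to 3 and 83.8, 90.9 and 97.6 CPM in GPT2sinc 1 to 3. All GPT2si libraries lay below all controls by a small margin (log2 fold change −0.22, SE 0.09, adjusted p = 0.219). CDC25C, a phosphatase that activates CDK1, had 28.5, 29.2 and 25.3 CPM in GPT2si 1 to 3 and 30.5, 35.1 and 34.5 CPM in GPT2sinc 1 to 3, also without overlap (log2 fold change −0.27, SE 0.11, adjusted p = 0.211), but it overlaps FAM53C on the opposite strand and is uncertain for the same reason as KIF18A. CDK1, the mitotic kinase itself, was at −0.33 (SE 0.13), with GPT2si 3 above GPT2sinc 2. For cyclin A2 (CCNA2) and Aurora A (AURKA) the values were −0.16 and −0.08; CCNA2 overlaps EXOSC9 and is uncertain too. Cyclin B1 (CCNB1), PLK1 and the phosphatase CDC25B were near 0, at 0.01, 0.02 and 0.07, with 95% intervals of −0.20 to 0.22, −0.28 to 0.32 and −0.17 to 0.32. The 2 B cyclins thus had different values in the same libraries, a difference that was not tested.

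FOXM1 and MYBL2, the transcription factor genes that drive this program, had values above 0 that were smaller than their spread. MYBL2, which encodes B-MYB, had 236, 312 and 227 CPM in GPT2si 1 to 3 and 209.8, 237 and 243 CPM in GPT2sinc 1 to 3. GPT2si 2 was highest and the other GPT2si libraries lay within the control range (log2 fold change 0.17, SE 0.13, adjusted p = 0.484), and this was the most positive value of the 53. FOXM1 had 182, 216 and 172 CPM in GPT2si 1 to 3 and 174, 184 and 189 CPM in GPT2sinc 1 to 3 (log2 fold change 0.06, SE 0.10, adjusted p = 0.786), again with GPT2si 2 highest; it overlaps RHNO1 on the opposite strand, so its counts are uncertain.

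The genes of anaphase onset, the passenger complex and cytokinesis had medians of −0.09, −0.12 and −0.24. None of these 11 genes had an unadjusted p under 0.05, a count too small to set apart from the 9.27% lower and 10.3% higher of all genes tested. PTTG1, securin, which holds separase inactive, had 93.0, 101 and 88.9 CPM in GPT2si 1 to 3 and 95.7, 107 and 118 CPM in GPT2sinc 1 to 3; it has near-identical copies in the genome, so its counts are uncertain. ESPL1, separase, had 111, 138 and 111 CPM in GPT2si 1 to 3 and 120.3, 135 and 146 CPM in GPT2sinc 1 to 3. In both, GPT2si 2 lay inside the control range and the other GPT2si libraries below it (−0.18 and −0.16, SE 0.10 and 0.11). CDC20 and UBE2C, the activator and the ubiquitin-conjugating enzyme of the anaphase-promoting complex, were at −0.02 and 0.02, and CDC20 had the highest level per length of the 53 genes, 100.5 CPM per kb in GPT2sinc. CENPE had the lowest, 0.537. For the passenger complex, the scaffold INCENP had 106, 114 and 101 CPM in GPT2si 1 to 3 and 110.3, 122 and 119 CPM in GPT2sinc 1 to 3, and CDCA8, or borealin, had 99.9, 113 and 94.2 CPM in GPT2si 1 to 3 and 106, 114 and 123 CPM in GPT2sinc 1 to 3. The groups overlapped in both (−0.13 and −0.15, SE 0.08 and 0.10). Survivin (BIRC5) was at −0.11 and Aurora B (AURKB) at 0.05. In cytokinesis, ECT2, which activates RhoA at the cleavage plane, had 13.5, 9.01 and 15.3 CPM in GPT2si 1 to 3 and 18.1, 14.9 and 14.5 CPM in GPT2sinc 1 to 3. ANLN, the anillin scaffold of the contractile ring, had 27.3, 18.3 and 31.8 CPM in GPT2si 1 to 3 and 32.9, 29.5 and 28.9 CPM in GPT2sinc 1 to 3. In both, GPT2si 2 was lowest, GPT2si 1 lay just below the controls and GPT2si 3 inside the control range (−0.33 and −0.24, SE 0.19 and 0.18). PRC1, the midzone bundler, was at −0.11, with counts that are uncertain because another gene overlaps it on the same strand.

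GPT2si 2 stood apart for many of these genes. It was the lowest of the 6 libraries for 30 of the 53 genes (56.6%, against 33.7% of all genes tested). At the same time it was the highest for 7, namely PLK1, CDC25B, FOXM1, MYBL2, AURKB, CDC20 and UBE2C. The share of all genes tested that were highest in GPT2si 2 was not counted, so the 7 have no background. With each gene centred on its mean over 6 libraries, the median log2 CPM of the 53 genes was −0.33 in GPT2si 2, −0.09 in GPT2si 1 and −0.05 in GPT2si 3, and 0.16, 0.10 and 0.15 in GPT2sinc 1 to 3. For kinetochore genes the centred median was 0.64 in GPT2sinc 1 and −0.85 in GPT2si 2, with the other libraries between −0.22 and 0.25. For cytokinesis genes GPT2si 3, at 0.16, lay above 2 of the 3 controls. Without GPT2si 2 the median over the 53 genes was −0.21, 51 of 53 were negative, and 4 were lower at an adjusted p under 0.05 (2.62% of all genes tested in that fit): BUB1 (−0.43, SE 0.06, adjusted p = 0.0123), NUSAP1 (−0.41, SE 0.06, adjusted p = 0.0142), KIF2C (−0.33, SE 0.07, adjusted p = 0.0429) and DLGAP5 (−0.32, SE 0.07, adjusted p = 0.0461). Leaving out each of the other 5 libraries gave 0 calls among the 53 genes, in fits with few calls at all. Over all genes tested there were 58 lower and 51 higher without GPT2si 3. Without any of the rest there were at most 4 lower and 3 higher, too few to set the 53 genes apart.

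**Figure D3:**
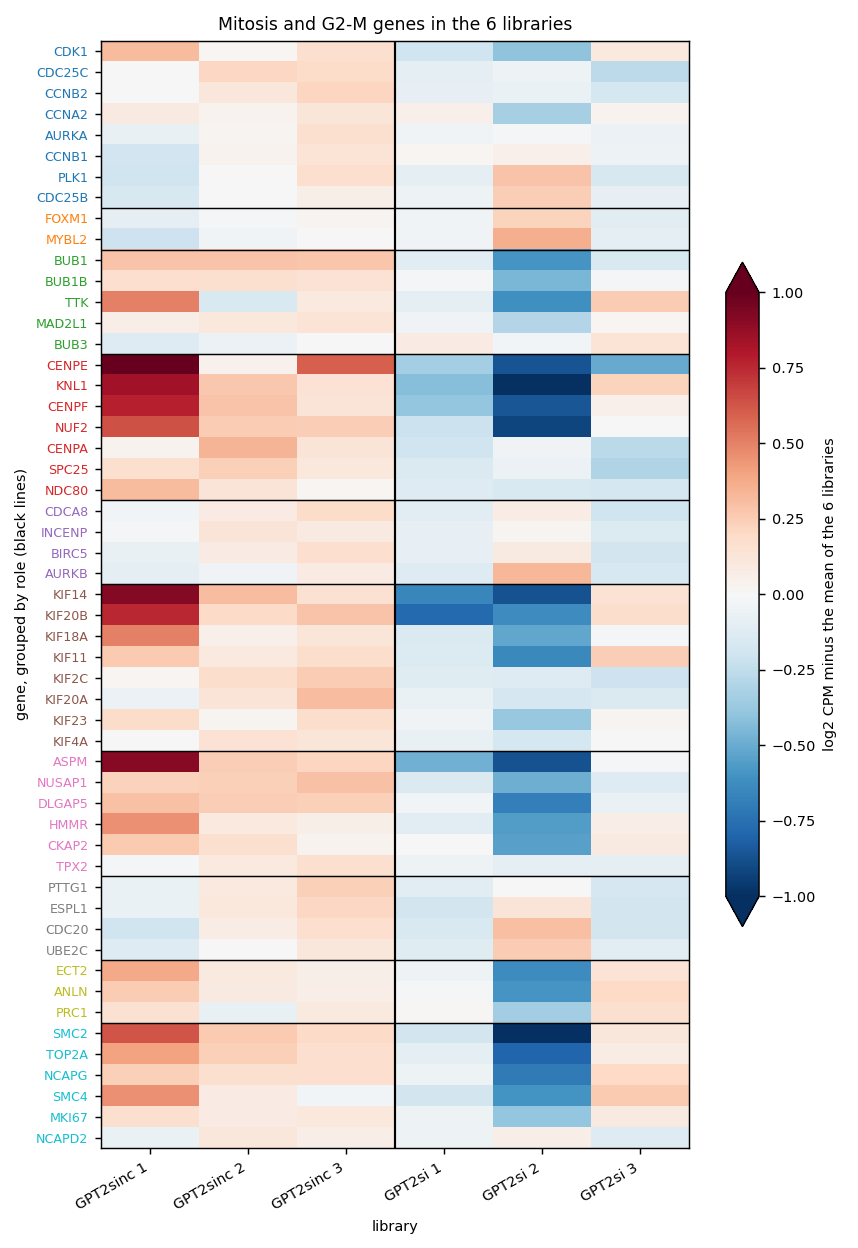
Log2 CPM of each gene (rows, grouped by role between black lines) in each library (columns), minus the mean of the 6 libraries; red is higher and blue lower, and the scale ends at −1 and 1. GPT2si 2 shows the deepest blue for kinetochore genes (centred median −0.85) and the reddest cells of the GPT2si group for MYBL2, AURKB and CDC20.

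The libraries also differed in how levels followed the GC content of transcripts, and the mitosis genes are GC-poor. The median GC content of the longest transcript was 42.5% for the 53 genes and 49.3% for 13554 tested protein-coding genes. Across the 53 genes the log2 fold change went with GC content (Pearson r = 0.69, Spearman rho = 0.78; across genes that share libraries and are not independent replicates). Over the tested protein-coding genes rho was 0.23. In GPT2si 2 the centred level was higher at higher GC content across the tested protein-coding genes (rho = 0.60), whereas the sign was opposite in GPT2si 3 (−0.46) and GPT2sinc 1 (−0.34). The 30 genes lowest in GPT2si 2 had a GC content of 35.3% to 48.4%, and the 7 highest there all lay above that range, up to 60.5%. The 27 genes at or below the members' median GC had a median log2 fold change of −0.33, and the 26 above it −0.14; for tested protein-coding genes on the same sides of that value the medians were −0.12 and 0.04. Among the 26, 7 had an unadjusted p under 0.05 in the lower direction, or 26.9%, against 1011 of 10098 protein-coding genes on that side. What part GC content has in the difference between the groups was not tested, but the edgeR fit was repeated with an offset for GC content and length for each gene and library.

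**Figure D4:**
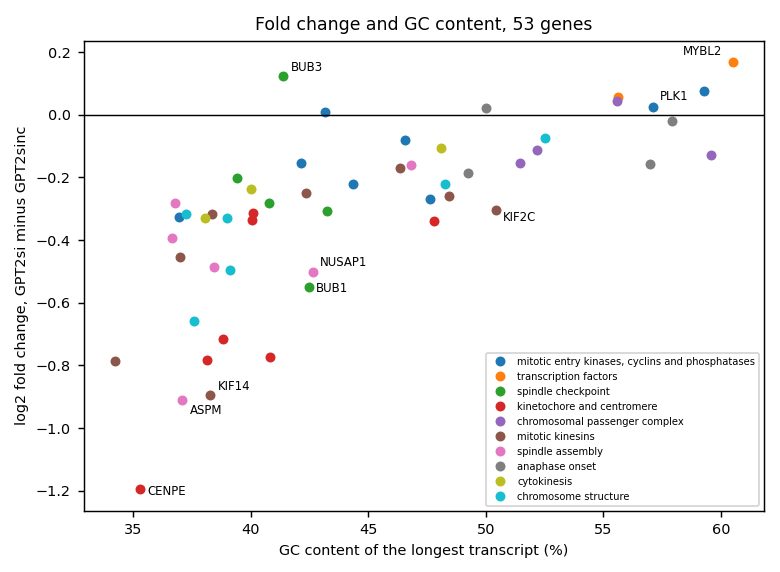
Log2 fold change (y axis, GPT2si minus GPT2sinc) against the GC content of the longest transcript (x axis, percent), 1 point for each of the 53 genes, coloured by role. Values run from −1.19 for CENPE at 35.3% GC to 0.17 for MYBL2 at 60.5% GC, with rho = 0.78 across genes.

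With these offsets most values lay nearer 0 and had smaller errors. The median over the 53 genes was −0.19, against 0.02 over all genes tested, 48 of 53 were negative, and 13 were lower and 0 higher at an adjusted p under 0.05 (4.92% of all genes tested were lower in that fit). The 13 were ASPM, BUB1, BUB1B, CENPE, CENPF, DLGAP5, KIF14, KIF2C, KNL1, NUF2, NUSAP1, SMC2 and TOP2A. They include all 8 genes called by DESeq2 and all 4 called without GPT2si 2. BUB1 was at −0.48, SE 0.07, adjusted p = 0.00610, and NUSAP1 at −0.46, SE 0.07, adjusted p = 0.00610. BUB1, DLGAP5 and NUSAP1 were called in all 3, by DESeq2, with offsets and without GPT2si 2. CENPE moved from −1.19 to −0.90, SE 0.21, adjusted p = 0.0266, and ASPM from −0.91 to −0.64, SE 0.11, adjusted p = 0.00994. KIF2C, with 50.4% GC, stayed near its value without offsets (−0.33, SE 0.06, adjusted p = 0.0137). Of the 53 genes, 43 were negative in each of the 16 fits, and the sign differed between fits for 9: AURKB, CCNB1, CDC20, CDC25B, FOXM1, MYBL2, PLK1, PRC1 and UBE2C. The fits reuse the same libraries and are not independent. The share of all genes tested that were negative in every fit was not counted, so the 43 have no background.

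**Figure D5:**
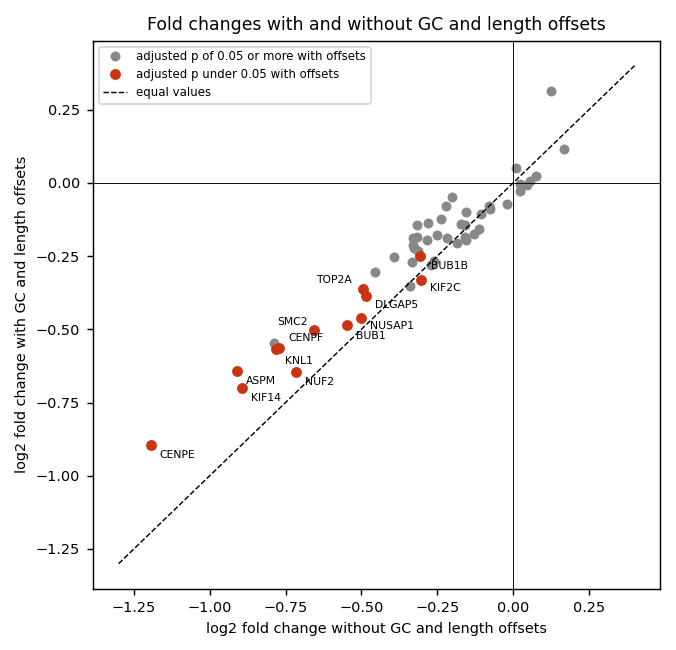
Log2 fold change of each of the 53 genes in the edgeR fit with GC and length offsets (y axis) against the fit without them (x axis), with the line of equal values dashed. The 13 genes in red have an adjusted p under 0.05 with offsets; CENPE, at −1.19 without offsets, lies at −0.90 with them.

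Other genes of mitosis, listed by role, had values nearer 0. Of 102 such genes 0 passed with edgeR (15 lower and 8 higher at an unadjusted p under 0.05; 6 lower and 1 higher with DESeq2), and the median was −0.07. Over all genes tested 9.27% were lower and 10.3% higher at that unadjusted p, and 3.58% were lower with DESeq2, so the count of higher genes was not above the background. Among 29 further kinetochore and centromere genes the median was −0.05, with HJURP, the chaperone that loads CENPA, at −0.29 (SE 0.09) and CENPC at −0.69 (SE 0.24). All 6 further cytokinesis genes were negative, against 52.0% of all genes tested. Citron kinase (CIT) was at 118 ± 2.13 against 149 ± 5.11 CPM (log2 fold change −0.33, SE 0.08, adjusted p = 0.0667) and ARHGEF39 at −0.23. Among 15 further spindle genes, SPAG5, or astrin, was at 134 ± 3.04 against 166 ± 3.74 CPM (log2 fold change −0.31, SE 0.07, adjusted p = 0.0773) and CKAP2L at −0.53. In 21 genes of condensin, cohesin and chromosome structure, SGO2, a protector of centromeric cohesion, was at −0.98 (SE 0.27) and HMGB2 at −0.30. In 14 genes of entry control, the kinase NEK2 was at −0.49 (SE 0.14), while CDC25A, a phosphatase that also acts at the start of S phase, lay higher in every GPT2si library (48.5 ± 3.16 against 35.4 ± 2.74 CPM; log2 fold change 0.45, SE 0.10, adjusted p = 0.0662). The 17 genes of the anaphase-promoting complex and its partners had a median of 0.06, with ANAPC13 at 0.34 and ANAPC15 at 0.35.

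Most genes that act before mitosis, in DNA replication, had positive values. Of 58 DNA replication genes 51 were positive, where 52.0% of all genes tested were negative, with a median of 0.14, and 17 of the 58 had an unadjusted p under 0.05 in the higher direction and 0 in the lower, against 10.3% and 9.27% of all genes tested. POLE3, a subunit of DNA polymerase epsilon, rose (97.5, 101 and 88.9 CPM in GPT2si 1 to 3 and 57.1, 69.4 and 72.2 CPM in GPT2sinc 1 to 3; log2 fold change 0.53, SE 0.11, adjusted p = 0.0493), and its adjusted p lay close to the threshold: it was 0.0564 with DESeq2 size factors, 0.0503 with upper-quartile factors, 0.117 without a filter and 0.0540 with limma-voom, and between 0.0549 and 0.234 without any 1 library other than GPT2si 2. FEN1, the flap nuclease, was at 0.46 (SE 0.10, adjusted p = 0.0592). Their centred median was −0.17, −0.03 and −0.05 in GPT2sinc 1 to 3 and 0.10, 0.13 and 0.06 in GPT2si 1 to 3, so the groups did not overlap. With GC and length offsets the median of the replication genes was 0.19, while that of the mitosis genes was −0.19; the difference between the 2 lists was not tested. Among 22 regulators of these programs 0 passed, with 4 at an unadjusted p under 0.05, each higher (10.3% of all genes tested). E2F1, an activator of replication genes, was at 32.6 ± 4.30 against 23.8 ± 0.530 CPM. All GPT2si libraries lay above all controls (log2 fold change 0.45, SE 0.12, adjusted p = 0.0867). E2F4, the DREAM subunit, was at 0.33 (SE 0.09). CDKN1A, which encodes the CDK inhibitor p21, had 414, 557 and 411 CPM in GPT2si 1 to 3 and 282, 338 and 365 CPM in GPT2sinc 1 to 3, again without overlap and with GPT2si 2 highest (log2 fold change 0.49, SE 0.14, adjusted p = 0.110).

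Fold changes were also set beside the promoter letters. The 36 genes with CHR letters had a median log2 fold change of −0.32 and the 9 without −0.18, and the GC content of their transcripts also differed, with medians of 40.5% and 48.4%. The range without CHR letters ran from CENPE at −1.19 to MYBL2 at 0.17. The 34 genes with CCAAT and the 11 without had medians of −0.25 and −0.31.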

How the data were processed

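Per the labels' protocols, poly(A) RNA of A2780 cells was fragmented, copied with dUTP in the second strand to keep strand, and amplified by PCR. The authors deposited raw whole-number counts for each Ensembl gene, 1 column per library. Tools listed, per the submitters' processing notes, are CASAVA and StringTie, with no version. Which aligner, counting program, strand setting, genome build and annotation were used was not given in the sources used here. All 6 columns were matched to libraries by name, and 0 were left unmapped. Symbols came from the gene name table used here (60295 of 60564 rows), and positions, lengths and GC content from GENCODE 29 (GRCh38).

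Differences were tested with edgeR 4.0.16 (quasi-likelihood F test, TMM factors, filterByExpr, group as the only term; R 4.3.3), adjusted by Benjamini-Hochberg over 17006 genes at a threshold of 0.05. Standard errors came from the F statistic. Alternatives were other size factors, no filter, a filter of 1 CPM in 3 libraries, DESeq2 1.42.0, limma-voom (limma 3.58.1), a replicate block, GC and length offsets (loess, span 0.5, covering 98.9% of genes) and leaving out each library. Same-numbered libraries did not deviate together (r = 0.09, 0.11 and −0.19), so the numbers were not used as pairs. Pairs of libraries differed by more than sampling noise (chi-square per degree of freedom at least 8.23). A floor of 3 counts equals 0.0590 to 0.0715 CPM and covers counting error only.

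The genes and lists were chosen with earlier results of these data known. Values per library are given for the 2 genes of each role with the smallest p, the most abundant gene, the most negative and most positive genes and MKI67. GPT2, CDKN1A and, from each other list, the 2 genes with the smallest p are also named; 1 further gene of that rule is not reported here. Other genes among the 53 are given by fold change. In simulated libraries for GPT2si against GPT2sinc (16732 genes tested), recovery was 22.4% at a 1.5-fold change, 59.7% at 2-fold and 93.9% at 4-fold, with 7.63% false calls.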

Additional observations from a re-analysis of the deposited data

How the results depend on the processing

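The count of mitosis genes past the test moved from 0 to 8 lower with DESeq2, 13 with GC and length offsets and 4 without GPT2si 2, and stayed at 0 with DESeq2 size factors or upper-quartile factors in edgeR, with either filter and with limma-voom. With the replicate block it was 10, and 13 with the replicate block and offsets, although the numbers do not pair the libraries and GPT2si 1, 2 and 3 correlated best with GPT2sinc 1, 3 and 1. No fit called a mitosis gene higher. Leaving out single libraries gave 0 to 4 lower, 0 higher, and a median between −0.30 and −0.21. For the other mitosis genes the count was 0, and 2 with upper-quartile factors, 7 with DESeq2, 16 with offsets, 1 with the replicate block, 12 with the replicate block and offsets, and 0 to 6 with single libraries left out. Over all genes tested, calls lower and higher numbered 143 and 98, against 27 and 17 without a filter, 491 and 569 with DESeq2, 306 and 252 with the replicate block, 837 and 1144 with offsets, 739 and 1058 with both, 459 and 377 without GPT2si 2, and 58 and 51 without GPT2si 3; without any other library they numbered at most 4 and 3. The causes were not tested. Upper-quartile factors moved the median of all genes from −0.01 to −0.06. CENPE, KIF20B and KIF18A had the lowest levels per length; how far depth limits them was not tested. GPT2 kept its call in every fit.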
